A study of Mus musculus with 18 samples.

Results

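The genes described are 10 that handle cysteine, taurine and sulfide in the mouse retina: the enzymes Cbs, Cth, Cdo1, Csad, Mpst, Tst, Ethe1 and Suox and the transporters Slc1a1 and Slc6a6. They were chosen by name, for their place in the pathway, among 35006 genes counted, and all 10 had enough reads to be tested, as had 16183 genes in all. Retinal poly(A) RNA of male mice was sequenced in 18 libraries of 4 groups. WT mice were C57BL/6J and drank water (3 libraries). WT + NACET mice were C57BL/6J given N-acetyl-L-cysteine ethyl ester, a cell-permeable cysteine donor (6 libraries). Akita mice (C57BL/6-Ins2Akita/J) carry 1 mutated copy of the insulin gene Ins2 in every tissue, become diabetic because of beta cell loss, and drank water (4 libraries). Akita + NACET mice had the same genotype and the drug (5 libraries). NACET was dissolved in the water at 0.33 mg/mL for 50 mg/kg per day, and water or NACET was given from 4 to 24 weeks of age. Females were not studied, and the labels do not say whether each library is a different animal or whether WT and Akita mice were littermates, so the p-values measure the spread between these libraries.

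Cysteine is made from methionine in the transsulfuration pathway, in which cystathionine beta-synthase (Cbs) joins homocysteine to serine and cystathionine gamma-lyase (Cth) releases cysteine, or it is taken up, for example by the glutamate and cysteine transporter Slc1a1. It is then built into glutathione, oxidised by cysteine dioxygenase (Cdo1) and decarboxylated by Csad on the way to taurine, or broken down to hydrogen sulfide, which Ethe1, Tst and Suox pass on towards thiosulfate, sulfite and sulfate. Taurine is the most abundant free amino acid of the retina, is carried into cells by Slc6a6, and is needed for photoreceptors to survive.

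Libraries held 11495596 to 17814479 gene counts. The labelled tissue was checked against 7 rod markers (Gnat1, Pde6a, Pde6b, Sag, Nrl, Nr2e3, Cnga1), all of which were detected in every group and which together made up 25570 to 52830 CPM, the read count scaled to library size. Some libraries stood apart. Akita replicate 4 had the highest rod sum and the lowest sum of Müller glia markers, 1345 CPM. The 5 lens markers summed to 23130 CPM in WT + NACET replicate 5, 2767 in Akita replicate 2 and 1224 in Akita + NACET replicate 3, against at most 337.5 elsewhere. Pigment epithelium markers varied from 65.84 CPM in Akita replicate 2 to 1510 in WT + NACET replicate 4. Results that rest on these libraries are also given without them.

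Retinal expression of the pathway was dominated by the taurine transporter. On the RPKM scale, which is CPM divided by the annotated exon length in kilobases, Slc6a6 reached 466 ± 152 (SD, n = 18 libraries), rank 62 of 16071 genes with a known length and 39.7 times the next member. Ethe1, the mitochondrial persulfide dioxygenase, followed at 11.7 ± 1.51, then Slc1a1 at 8.60 ± 3.14 and the taurine enzyme Csad at 6.91 ± 1.01. Below these were the thiosulfate sulfurtransferase Tst (4.57 ± 3.35), sulfite oxidase Suox (4.11 ± 0.511) and Cdo1 (3.75 ± 0.885). The enzymes that make cysteine and sulfide were the least abundant: Cth at 2.08 ± 0.406, the mercaptopyruvate sulfurtransferase Mpst at 1.22 ± 0.368 and Cbs at 0.828 ± 0.403 RPKM. In all 18 libraries Slc6a6 exceeded Ethe1, Cdo1 exceeded Cth and Cth exceeded Mpst. Other neighbours did not keep this order in every library, and their differences were not tested: Ethe1 exceeded Slc1a1 in 14 of 18, Slc1a1 exceeded Csad in 13, Csad exceeded Tst in 16, Suox exceeded Cdo1 in 11 and Mpst exceeded Cbs in 14. Tst exceeded Suox in only 4 although its mean was higher, with 2 of its libraries, described below, far above the rest.

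**Figure D1:**
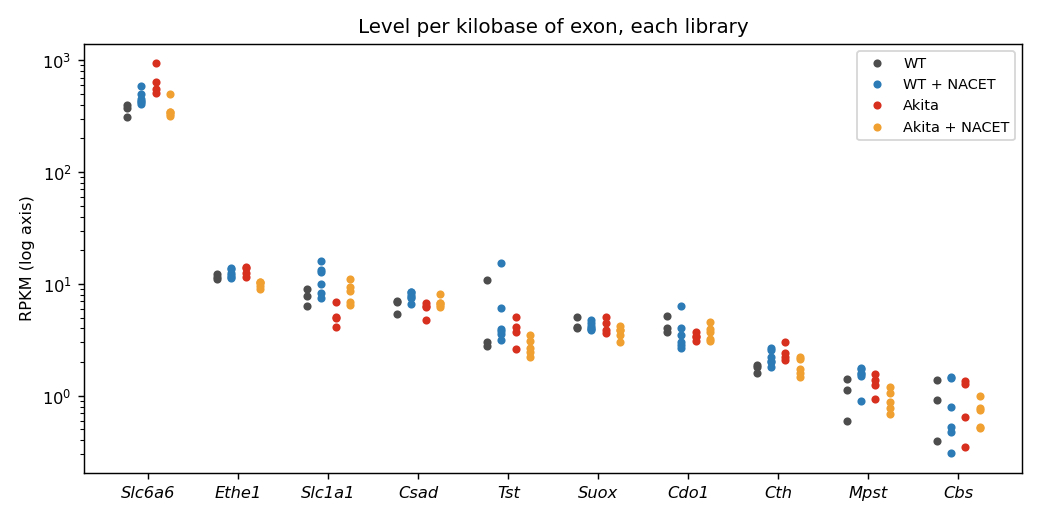
Level of each member in RPKM (log axis), 1 dot per library in the 4 group colours, in order of the mean over 18 libraries. Slc6a6 lies far above the other 9 members, at 314 to 936 RPKM, and Cbs and Mpst are lowest.

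The members also differed in how closely replicates resembled each other. Within groups, the SD of log2 CPM was 0.11 for Ethe1, smaller than in all but 9.18% of the genes tested, and 0.76 for Cbs and 0.68 for Tst, larger than in 96.9% and 95.5% of genes. The median over all genes tested was 0.23. Cbs was counted with 14 to 83 reads per library and Mpst with 15 to 44, where counting error alone is sizeable, whereas Tst had 35 to 288 reads.

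The comparison of Akita with WT asks what diabetes changed. Of the 10 members, only the taurine transporter Slc6a6 was called (rose, 1 of 10), in a comparison in which 7.64% of all genes tested were called, so that the members' share is near the background. Slc6a6 (chr6:91634061-91709057 of mm9, plus strand) measured 1937, 2316 and 2450 CPM in the WT libraries and 3961, 3444, 3171 and 5774 CPM in Akita. Every Akita library lay above every WT library, and Akita replicate 4 was well above the other three. The difference was 1.83-fold (log2 0.87 ± 0.19 SE, edgeR adjusted p = 0.0168). Without Akita replicate 4 it was 0.66 on the log2 scale and still called (adjusted p = 0.0466), but the call was lost without WT replicate 1 (0.78, adjusted p = 0.115) or WT replicate 2 (0.90, adjusted p = 0.0743). Without either of these 2 WT libraries, 0 of all genes tested were called (16485 and 16432 tested), so the loss was not particular to Slc6a6.

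The remaining 9 members did not pass in Akita against WT. Cth, the last enzyme of transsulfuration (chr3:157557212-157588041 of mm9), had 3.59, 4.08 and 4.28 CPM in WT and 4.77, 5.04, 6.84 and 5.47 in Akita, with no overlap (log2 0.47 ± 0.19, adjusted p = 0.118). Cdo1 was just without overlap in the other direction, 5.74 to 7.91 CPM in WT and 4.72 to 5.71 in Akita (log2 -0.34 ± 0.24, adjusted p = 0.373). Together with Slc6a6, 3 of 10 members had groups that did not overlap, as did 23.2% of all genes tested. Slc1a1 had a log2 difference of -0.55 ± 0.25 (adjusted p = 0.165), and the rest lay between -0.49 for Tst and 0.31 for Mpst. The median log2 difference of the 10 was -0.0032, beside -0.015 for all genes.

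The comparison of Akita + NACET with Akita asks what the cysteine donor changed in diabetic mice. Slc6a6 and the sulfide-oxidising enzyme Ethe1 fell, 2 of 10 members, where 9.65% of all genes tested were called. Slc6a6 measured 3100, 2028, 2117, 2145 and 1976 CPM in Akita + NACET, all below the lowest Akita library, 3171 CPM. Replicate 1 stood nearest to the Akita libraries and the other 4 were close together, within the range of WT. The fold was 0.556 (log2 -0.85 ± 0.17 SE, edgeR adjusted p = 0.0161). The call was lost without Akita replicate 4 (-0.63, adjusted p = 0.0567), when 1 of all 16197 genes tested was called.

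Ethe1 (chr7:25372562-25393944 of mm9) measured 17.2, 18.5, 20.7 and 21.1 CPM in Akita and 15.2, 15.4, 15.4, 14.2 and 13.4 CPM in Akita + NACET. The groups did not overlap, and Akita + NACET lay below all other libraries of the series too, since WT had 16.4 to 18.4 and WT + NACET 16.7 to 20.5 CPM. The fold was 0.762 (log2 -0.39 ± 0.096, adjusted p = 0.0217). It was no longer called without Akita replicate 4 (-0.35, adjusted p = 0.0736), without Akita + NACET replicate 5 (-0.36, adjusted p = 0.0599) or by edgeR with only these 2 groups in the fit (-0.37, adjusted p = 0.0597), whereas DESeq2 with these 2 groups called it (-0.40, adjusted p = 0.0152). Of its exons, 99 bp (6.67%) overlap Zfp575 on the opposite strand, and counting did not use strand.

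These 2 were the only members without overlap, against 14.1% of all genes tested. The nearest of the others was Slc1a1, the transporter that can carry cysteine (chr19:28909539-28988450 of mm9), with 31.4, 30.5, 42.8 and 25.3 CPM in Akita and 68.1, 58.5, 39.6, 53.9 and 42.3 CPM in Akita + NACET. The groups overlapped through Akita replicate 3, and the log2 difference of 0.69 ± 0.22 missed the threshold (edgeR adjusted p = 0.0558), while DESeq2 with all groups called it (adjusted p = 0.0162), as did edgeR without Akita replicate 3 (0.85, adjusted p = 0.0421) or Akita + NACET replicate 3 (0.78, adjusted p = 0.0388). Cth was lower in most treated libraries (log2 -0.42 ± 0.16, adjusted p = 0.101), and the remaining 6 lay between -0.48 for Mpst and 0.19 for Csad without passing. The median log2 difference of the 10 members was -0.37, beside -0.0032 for all genes.

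**Figure D2:**
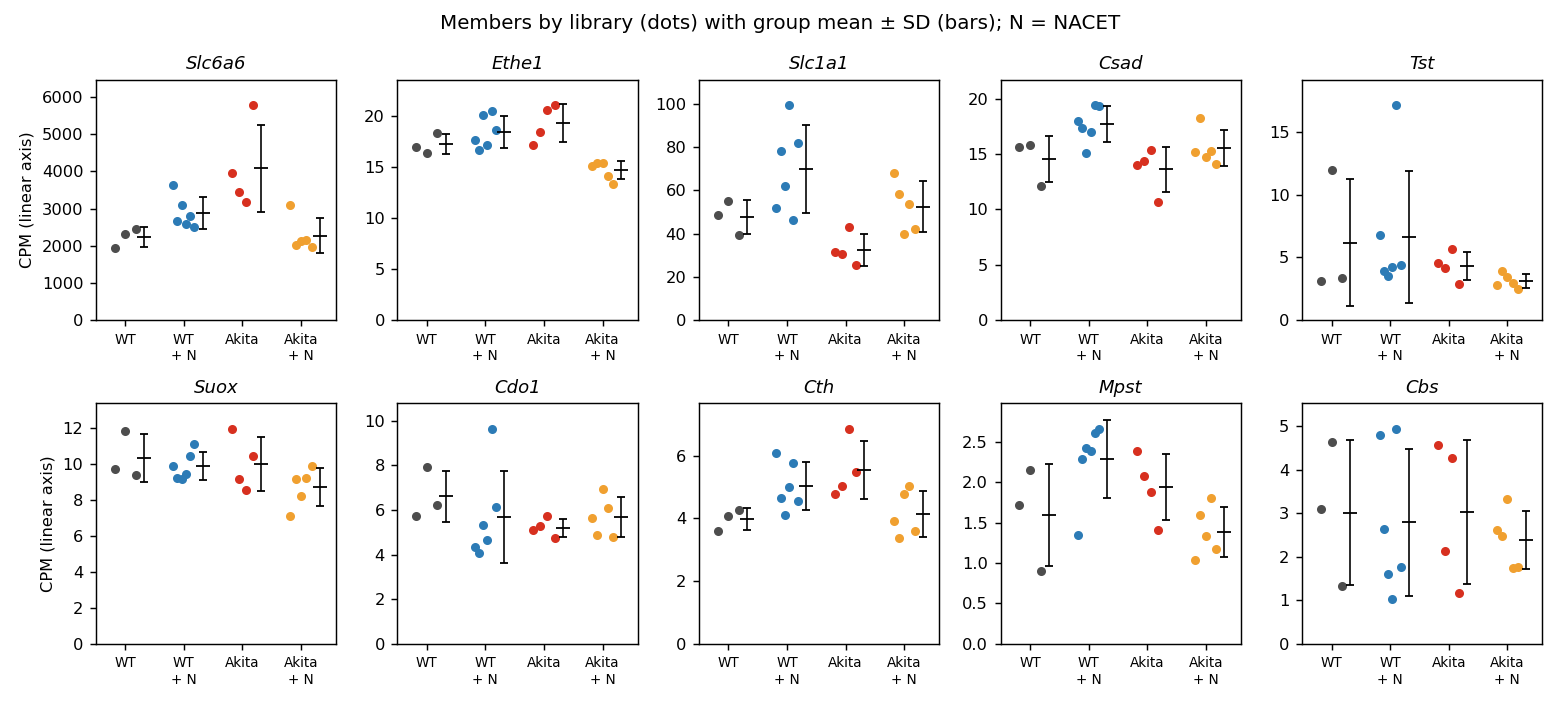
CPM of each member (linear axes from 0), 1 dot per library with the mean ± SD of each group to its right; N stands for NACET. The mean of Slc6a6 is highest in Akita, but WT + NACET replicate 1, at 3629 CPM, lies above Akita replicates 2 and 3 (3444 and 3171 CPM). Ethe1 is lowest in the 5 Akita + NACET libraries, and single high libraries set the mean of Tst in WT and WT + NACET.

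In normoglycemic mice NACET gave no called member. With 240 of all genes called (1.48%), 0 of 10 members passed in edgeR. An unadjusted p under 0.05 was reached by 2, Slc1a1 (log2 0.55 ± 0.23) and Csad (0.29 ± 0.13), and by 19.5% of all genes tested. DESeq2 with only these 2 groups called 1, Slc6a6 (0.37, adjusted p = 0.0427), where DESeq2 with all groups called 0. Slc6a6 in WT + NACET ran from 2505 through a median of 2726 to 3629 CPM, so all 6 libraries lay above the highest WT library, 2450 CPM. It was the only member without overlap here, against 11.5% of all genes, and its edgeR log2 difference was 0.37 ± 0.18 (adjusted p = 0.260). Csad, which yields hypotaurine, ran from 15.1 through 17.6 to 19.4 CPM against 15.6, 15.8 and 12.1 in WT, and these ranges overlapped.

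For 3 of 10 members the change with NACET was unequal in the 2 genotypes by a test of that difference, the interaction, which was called for 20.3% of all genes tested. For Slc6a6 the log2 effect in Akita minus that in WT was -1.21 ± 0.24 (edgeR adjusted p = 0.00384), between 0.37 in WT, which was not called, and -0.85 in Akita. For Ethe1 it was -0.49 ± 0.14 (adjusted p = 0.0205). Cth gave -0.76 ± 0.24 (adjusted p = 0.0342): it ran from 4.10 through 4.82 to 6.08 CPM in WT + NACET, where 5 of 6 libraries lay above WT, and had 3.93, 3.36, 4.79, 5.03 and 3.59 CPM in Akita + NACET, where 3 of 5 lay below Akita. The interaction of Slc6a6 was called whichever single library was left out, with log2 values from -1.35 to -0.999. That of Ethe1 was lost without WT replicate 1 (-0.48, adjusted p = 0.0534) or WT replicate 2 (-0.46, adjusted p = 0.0600). That of Cth was lost in 10 of 29 alternatives, among them the omission of Akita + NACET replicate 2 (-0.69, adjusted p = 0.0608) or 5 (-0.71, adjusted p = 0.0574), Akita replicate 3 (-0.63, adjusted p = 0.0733), WT + NACET replicate 5 (-0.71, adjusted p = 0.0536), WT replicate 1 (-0.69, adjusted p = 0.0957) and WT replicate 2 (-0.77, adjusted p = 0.0685).

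Between the 2 treated groups, only Ethe1 was called, lower in Akita + NACET (log2 -0.33 ± 0.087, edgeR adjusted p = 0.0194), 1 of 10 members where 13.3% of all genes were called. It was also the only one whose libraries did not overlap (8.01% of all genes). It was not called without the 3 libraries of high lens markers (-0.31, adjusted p = 0.0614), without Akita + NACET replicate 5 (-0.29, adjusted p = 0.0611) or without WT + NACET replicate 3 (-0.30, adjusted p = 0.0510). All 10 log2 differences were negative, from -0.0083 for Cdo1 to -1.10 ± 0.44 for Tst (adjusted p = 0.102), with a median of -0.30 beside -0.00015 for all genes. The sign of Cdo1 changed in 9 of 24 alternative fits and that of Cbs in 1 of 23. Tst was called by DESeq2 with these 2 groups (-1.09, adjusted p = 0.0199). Mpst missed the threshold with -0.71 ± 0.24 (adjusted p = 0.0521). Slc6a6, at -0.34 ± 0.15 (adjusted p = 0.128), was called only when Akita + NACET replicate 1 was left out (-0.48, adjusted p = 0.0391) or by DESeq2 with these 2 groups (-0.34, adjusted p = 0.0483).

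Against untreated WT, Akita + NACET had 0 of 10 members called, and 1 gene in all, 0.00618% of those tested. One member, Ethe1, had an unadjusted p under 0.05 (log2 -0.23 ± 0.10), as had 4.63% of all genes, and its libraries did not overlap, as for 4.17% of all genes. DESeq2, with all groups or only these, also called 0 members. For Slc6a6 the log2 difference was 0.025 ± 0.18, with a 95% interval from -0.33 to 0.38.

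**Figure D3:**
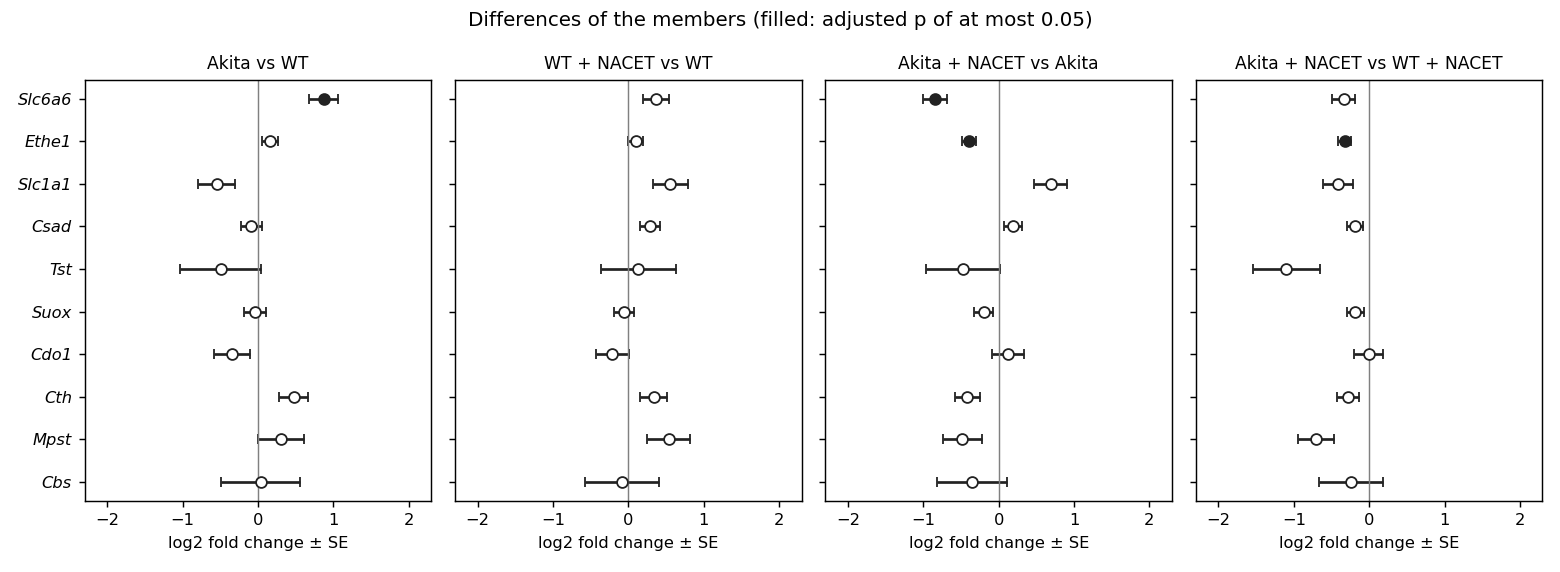
Log2 fold change ± SE of each member in 4 comparisons, from the edgeR fit of all groups; filled points passed an adjusted p of 0.05. Slc6a6 is at 0.87 in Akita against WT and at -0.85 in Akita + NACET against Akita, and all points lie at or left of 0 between the treated groups.

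Rod markers moved with Slc6a6. Their sum was 28210 to 39300 CPM in WT, 34900 to 47180 in WT + NACET, 36830 to 52830 in Akita and 25570 to 34270 in Akita + NACET, and of the 7 markers 2 rose in Akita against WT and 4 fell in Akita + NACET against Akita. In bulk tissue more rods and more of these RNAs per rod cannot be told apart. Other cell types moved too. In Akita against WT, 3 of 4 amacrine markers and 2 of 8 Müller glia markers fell. In Akita + NACET against Akita, 3 of 7 cone markers fell and 2 of 5 blood markers rose, and between the treated groups, where Ethe1 was called, 4 of 7 cone markers fell and 3 of 5 blood markers rose. Summed cone markers were 2549 to 3256 CPM in WT, 2666 to 4012 in WT + NACET, 2624 to 3966 in Akita and 1982 to 2525 in Akita + NACET. Amacrine markers summed to 315.9 to 435.6 CPM in WT and 193.7 to 285.4 in Akita, and blood markers to 11.94 to 33.94 CPM in Akita, 20.01 to 56.36 in WT + NACET and 35.66 to 97.19 in Akita + NACET. The part of these 4 cell types in the members' values was not tested. Relative to this sum, Slc6a6 amounted to 68.7, 75.1 and 62.3 CPM per 1000 CPM of rod markers in WT and to 100.3, 93.5, 72.05 and 109.3 in Akita, a ratio of means of 1.37 where the CPM themselves gave 1.83. Akita replicate 3 lay within the WT range and the other 3 Akita libraries above it. Akita + NACET libraries had 101.7, 64.7, 61.8, 62.7 and 77.3, of which replicates 1 and 5 fell in the Akita range. Neither difference passed an exact permutation test adjusted over 5 comparisons (two-sided, Akita against WT p = 0.0857, smallest possible 0.0286; Akita + NACET against Akita p = 0.111, smallest possible 0.00794; adjusted p = 0.278 for both). With only 35 permutations, Akita against WT could not have passed this adjustment on its own, so its result decides nothing.

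With the log2 rod sum as a covariate in edgeR, which was chosen after seeing the data, the log2 difference of Slc6a6 was 0.53 in Akita against WT (adjusted p = 0.497) and -0.44 in Akita + NACET against Akita (adjusted p = 0.959), and its interaction -0.58 (adjusted p = 0.555). Under the same covariate Ethe1 stood at -0.22 in Akita + NACET against Akita (adjusted p = 0.959) and at -0.20 between the treated groups (adjusted p = 0.236), and the interactions of Ethe1 (-0.21, adjusted p = 0.728) and Cth (-0.42, adjusted p = 0.701) were not called. With it, 0 of all 16183 genes were called in Akita against WT or in Akita + NACET against Akita, 574 between the treated groups, 84 in WT + NACET against WT and 20 in the interaction. The genes whose log2 CPM over the 18 libraries were most like those of Slc6a6 were Tmem135 (Pearson r = 0.944), Reep6 (0.941) and Tmem229b (0.938), and for Ethe1 they were Cdc123 (0.926), Gm5560 (0.923) and Vps29 (0.917). The points of these correlations share libraries and groups.

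The share of aligned reads outside annotated exons also followed the groups, 16.3 ± 1.24% in WT, 12.7 ± 2.74% in WT + NACET, 11.5 ± 1.83% in Akita and 16.4 ± 2.11% in Akita + NACET (SD). With it as a covariate in edgeR 0 members were called in any comparison, and 1 to 3 members had an unadjusted p under 0.05 in each. The share of all genes at that unadjusted p was not measured under this covariate. Of all 16183 genes, 0 were then called in Akita against WT or Akita + NACET against Akita, 194 between the treated groups, 61 in WT + NACET against WT and 17 in the interaction. Slc6a6 stood at 0.77 in Akita against WT (adjusted p = 0.277) and at -0.75 in Akita + NACET against Akita (adjusted p = 0.628), and Ethe1 at -0.18 in the latter (adjusted p = 0.654). The part of this share in the results was otherwise not tested.

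Slc1a1 tended to be higher where the summed pigment epithelium markers were higher (Rpe65, Best1, Lrat, Rgr, Ttr, Rdh5, Pmel, Tyr), genes of the cell layer that adjoins the photoreceptors. Their sum was 158.3 to 638 CPM in WT, 499.5 to 1510 in WT + NACET, 65.84 to 235.6 in Akita and 96.07 to 702.6 in Akita + NACET, with none of the 8 at 0 in any group. The highest Slc1a1, 99.3 CPM, was in the library with the highest sum, WT + NACET replicate 4, and the lowest, 25.3 CPM, in Akita replicate 4 with a sum of 78.91 CPM. The order was not strict. Akita + NACET replicate 5 had 42.32 CPM of Slc1a1 at a sum of 96.07, and Akita replicate 1 had 31.35 at 107.9. Best1 stayed between 0.746 and 2.894 CPM in all libraries. With the log2 sum as a covariate, chosen after seeing the data, the log2 difference of Slc1a1 in Akita + NACET against Akita was 0.20 (adjusted p = 0.484) in place of 0.69, and 0 of all 16183 genes were called in that comparison. Among the genes most like it were Tshr (r = 0.966) and Tmem56 (0.961). An annotated gene on the opposite strand, 4430402I18Rik, covers 185 bp of its exons. The part of the pigment epithelium in the Slc1a1 values was otherwise not tested.

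**Figure D4:**
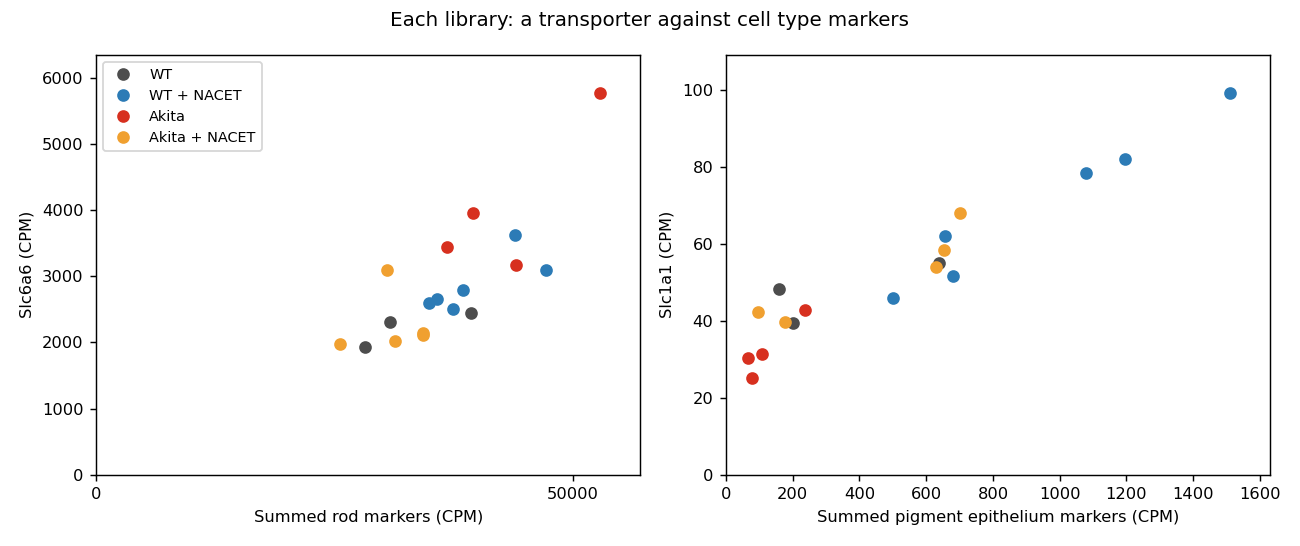
Slc6a6 against the summed rod markers (left) and Slc1a1 against the summed pigment epithelium markers (right), both in CPM, 1 dot per library. Akita replicate 4 is the point at 52830 CPM of rod markers and 5774 CPM of Slc6a6, and WT + NACET replicate 4 the point at 1510 CPM of pigment epithelium markers and 99.3 CPM of Slc1a1.

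The thiosulfate sulfurtransferase Tst and its close relative Mpst, which transfers sulfur from mercaptopyruvate, are neighbours on chromosome 15 (chr15:78229695-78236289 and chr15:78237142-78244432 of mm9) and are read outward from starts 853 bp apart. Over the 18 libraries their log2 CPM had a Pearson r of 0.477, where Tst with Cbs had 0.644. Tst had 3.09, 11.99 and 3.37 CPM in WT, 3.49 through 4.28 to 17.1 CPM in WT + NACET, 4.56, 4.11, 5.65 and 2.90 in Akita and 2.76, 3.89, 3.45, 2.98 and 2.48 in Akita + NACET. WT replicate 2 and WT + NACET replicate 5 were far above all others, which lay at or below 6.75 CPM. Without WT + NACET replicate 5 the log2 difference between the treated groups was -0.55 (adjusted p = 0.275) in place of -1.10, and without WT replicate 2 that of Akita against WT turned from -0.49 to 0.42 (adjusted p = 0.696). Cdo1 was highest in the same libraries, 9.63 and 7.91 CPM, and the genes most like Tst were Id3 (r = 0.961), Ifitm2 (0.937) and Ifi27l1 (0.937). Lens markers were high in WT + NACET replicate 5 but only 17.59 CPM in WT replicate 2, and their part in the Tst values was not tested.

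Mpst had 1.72, 2.16 and 0.903 CPM in WT, 1.35 through 2.41 to 2.66 in WT + NACET, 2.38, 2.08, 1.88 and 1.41 in Akita and 1.03, 1.59, 1.34, 1.80 and 1.18 in Akita + NACET. In WT + NACET 5 of 6 libraries lay above all Akita + NACET libraries and replicate 1 among them. Without that library the difference between the treated groups was called (log2 -0.83, edgeR adjusted p = 0.0229), as it was by DESeq2 with all groups (-0.71, adjusted p = 0.0385). Its interaction of -1.02 ± 0.39 (adjusted p = 0.0654) was called without the same library (-1.13, adjusted p = 0.0354), Akita replicate 4 (-1.14, adjusted p = 0.0481) or WT replicate 2 (-1.29, adjusted p = 0.0492). Microglia markers, 46.66 to 67.5 CPM in WT + NACET and 24.75 to 42.37 in Akita + NACET, were lower in the same comparison, 4 of 6 called, and their part was not tested. The genes most like Mpst were 1500026H17Rik (r = 0.855), Casp6 (0.852) and Laptm5 (0.828).

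Because NACET is described as an inducer of the transcription factor NRF2, promoters in the RefSeq table (250 bases before to 50 after a start, GRCm38.p6) were searched on both strands for the core of its binding site, TGACNNNGC, and for that of the amino acid response factor ATF4, TGATGNAA. The table covered 10 promoters of 6 members (Cbs, Csad, Mpst, Ethe1, Suox and Slc1a1), and those of Cth, Cdo1, Tst and Slc6a6 were not analysed here. The ATF4 core was in none of the 10, and in 3.97% of all 32851 promoters. The NRF2 core was in 1 of the 10, a promoter of Mpst, and in 12.4% of all promoters. It is shown with the match in capitals, at chr15:78406779-78406807 of GRCm38.p6, plus strand, 12 bases before the start:
Mpst: ggggagggggTGACATGGCggagctggga
A match of these letters is a description of the sequence and not evidence of binding.

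The other 3 enzymes were not called in any of the 6 comparisons by edgeR. Cbs, the first step of transsulfuration, ranged from 1.02 to 4.93 CPM over the 18 libraries with WT, WT + NACET and Akita each spanning most of that range, and its log2 differences lay between -0.36 and 0.035 with SEs of 0.42 to 0.68. Suox, which turns sulfite into sulfate, ranged from 7.10 to 11.9 CPM with differences between -0.24 and -0.041. Csad ranged from 10.7 to 19.4 CPM, with the lowest value in Akita replicate 4, and its differences between -0.19 and 0.29. The genes most like Csad were Phgdh (r = 0.896), Nqo1 (0.866) and St3gal6 (0.862), those most like Cbs were Gfpt2 (0.877), Nbl1 (0.877) and Sept9 (0.864), and those most like Suox were Ddit4l (0.818), 6430571L13Rik (0.750) and AI846148 (0.729). For Cth they were Pla2g5 (0.863), Fam98a (0.828) and 1190005I06Rik (0.806), and for Cdo1 Prrg1 (0.802), Hspb8 (0.770) and Evc (0.756). These values are the 3 highest for each member among 14472 genes compared over 18 libraries.

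Around these members, 56 genes of the methionine cycle, cystine and cysteine transport, glutathione synthesis and turnover, other taurine steps, other sulfide and sulfite steps, and other uses of cysteine were considered, of which 49 were tested. In Akita against WT 2 rose and 0 fell: Got2, the mitochondrial aspartate aminotransferase that can also transaminate cysteine sulfinate (157 against 116 CPM, log2 0.44 ± 0.12, adjusted p = 0.0311), and Ahcyl1, a relative of the enzyme that splits S-adenosylhomocysteine (309 against 243 CPM, 0.35 ± 0.099, adjusted p = 0.0382). In Akita + NACET against Akita 0 rose and 4 fell. Got1, the cytosolic counterpart of Got2, was at 401 against 572 CPM (-0.51 ± 0.12, adjusted p = 0.0207) and Got2 at 118 against 157 CPM (-0.41 ± 0.10, adjusted p = 0.0235). Ahcy, which yields homocysteine, was at 3.79 against 5.62 CPM (-0.57 ± 0.16, adjusted p = 0.0336) and the aminopeptidase Lap3 at 16.5 against 21.6 CPM (-0.39 ± 0.11, adjusted p = 0.0336).

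Under NACET in WT 0 of the 49 were called by edgeR, with 6 at an unadjusted p under 0.05, beside 19.5% of all genes. DESeq2 called 1 with all groups and 3 with only these 2 groups, where it called 705 and 938 of all genes. In Akita + NACET against WT 0 were called by either tool, with 3 at an unadjusted p under 0.05 in edgeR, beside 4.63% of all genes. Between the treated groups 2 rose and 4 fell, led by Lap3 (16.5 against 23.5 CPM, log2 -0.51 ± 0.10, adjusted p = 0.00370), Ggt1, which cleaves extracellular glutathione (1.64 against 4.91 CPM, -1.58 ± 0.39, adjusted p = 0.0148), Ahcyl1 (0.29 ± 0.078, adjusted p = 0.0190) and Mocs2, which takes part in making the molybdenum cofactor of sulfite oxidase (-0.28 ± 0.084, adjusted p = 0.0307). The interaction was called for 1 gene upward and 7 downward, led by Lap3 (-0.79 ± 0.16, adjusted p = 0.00418), Ahcy (-0.89 ± 0.23, adjusted p = 0.0138), the taurine conjugating enzyme Baat (-2.83 ± 0.83, adjusted p = 0.0237, at under 1 CPM in each group's mean) and the amino acid transporter chain Slc3a2 (-0.48 ± 0.16, adjusted p = 0.0372). In edgeR these shares, 4.08%, 8.16%, 12.2% and 16.3% of the 49, are each below the share of all genes. This does not hold in DESeq2 with all groups. There 5, 5, 10 and 8 neighbouring genes were called in the same comparisons, beside 2080, 2387, 2751 and 3782 of 27360 genes. Gclc and Gclm, the subunits of the enzyme that commits cysteine to glutathione, were not called in any comparison, with group means of 5.61 to 6.73 and 40.3 to 44.1 CPM.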

How the data were processed

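Per the labels and the study's methods, the authors sequenced poly(A) RNA (TruSeq v2), aligned reads to mm9 with TopHat2 2.1.0 and counted reads over exons with HTSeq 0.11.2, ignoring strand. The deposited values are raw read counts for 35006 gene names per library. The counts were used as deposited, without the 5 summary entries, the nameless entry (0.0054% of gene counts) and 206 ribosomal RNA genes (0.977%). The main test was edgeR 4.0.16 (R 4.3.3; quasi-likelihood F test, TMM, default filter with a minimum count of 10, robust dispersion, all 4 groups in 1 fit), with Benjamini-Hochberg adjustment over 16183 genes and a threshold of 0.05. No minimum fold was set. SEs come from the F statistic, and intervals are normal. Effects relate to other genes of the library. The study used DESeq2, here an alternative (1.42.0, with sva 3.50.0). In simulated counts for Akita against WT with 15896 genes, the test recovered 22.1% of genes changed 1.5-fold, 65.7% at 2-fold and 100% at 4-fold, with 7 false calls. Every simulated gene had the same dispersion, near the common estimate of 0.0347, and genes with few expected reads were not changed. Variation shared between genes was not simulated. The figures therefore do not cover members of larger spread, such as Cbs and Tst. A count of 14 to 44 reads per library (Cbs, Mpst) limits precision.

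Members, neighbouring lists and markers were chosen with earlier results of these data known. All 10 members are named; of the neighbouring genes at most the 4 called of smallest p in each comparison; and for each member the 3 genes of highest Pearson r of log2 CPM (prior count 2). Genes that are not reported here were left out of these names and of the rod markers. No 2 replicates agreed within sampling noise (chi-square of at least 4.83 per gene). The labels do not say whether replicate numbers pair the libraries, and the main fit did not pair them. Protein sequences were not used here. Coordinates are mm9 (GENCODE) unless GRCm38.p6 is named.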

Additional observations from a re-analysis of the deposited data

Results flagged for a closer look

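In 5 of 30 combinations of a member and a group of 4 or more libraries, 1 library stood far from the others of its group. Chance gives about 1 in 20 when combinations are independent, but these share libraries. The share over all genes tested was not measured, so the 5 cannot be read as a trait of the members. In WT + NACET, replicate 5 was highest for Cdo1 (9.626 CPM) and Tst (17.11 CPM), and replicate 1 was lowest for Mpst (1.35 CPM). In Akita + NACET, replicate 2 was highest for Csad (18.27 CPM) and replicate 1 for Slc6a6 (3100 CPM). WT + NACET replicate 5 is also the library with 23130 CPM of lens markers, and the part of these in the values was not tested. Over all genes with enough reads, it differed from the rest of its group with a chi-square of 41.35 to 52.58 per gene. Other pairs of WT + NACET libraries had 6.591 to 28.24.

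For 3 members the log2 change with NACET in Akita minus that in WT was called by the edgeR interaction test, all negative. It was -1.212 for Slc6a6 (adjusted p = 0.00384), -0.4898 for Ethe1 (adjusted p = 0.0205) and -0.755 for Cth (adjusted p = 0.0342). With the summed rod markers as a covariate these were -0.58, -0.21 and -0.42 and were not called.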

How the results depend on the processing

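Of 1368 alternative values of single members, 1308 kept their side of the threshold, 42 lost a call, 18 gained one and 0 turned a call round; 56 changed sign with no call in either fit. The numbers of members called in Akita against WT (1), Akita + NACET against Akita (2), Akita + NACET against WT + NACET (1) and the interaction (3) changed as follows. A covariate for reads aligned outside exons turned all 4 into 0. So did a covariate for rod markers, added after seeing the data, and with pigment epithelium markers, likewise added, the first 3 became 0. With 2 groups in the fit, edgeR called 0 in Akita against WT and 2 between the treated groups, and DESeq2 called 1 in WT + NACET against WT (edgeR 0) and 4 between the treated groups (2 with all groups). In Akita + NACET against Akita, Slc1a1 was also called (3 in all) by DESeq2 with 2 or all groups, with 1 surrogate variable and with a mean count of at least 50, and edgeR with 2 groups called 2, Slc1a1 and Slc6a6 but not Ethe1. With no filter the treated groups gave 0 and the interaction 1. Without the 3 libraries of high lens markers, also added, the treated groups gave 0. Replicate numbers were shared by 22 pairs of libraries, with correlations of deviations from -0.33 to 0.34, of which 4 exceeded 0.1. Pairs with unlike numbers were not measured beside them, so these correlations cannot decide whether the numbers pair the libraries. With the replicate block the counts were 1, 1, 0 and 2 in the same order. Leaving out 1 library gave 0 to 1, 0 to 3, 0 to 2 and 1 to 4. The lows were reached without WT replicate 1 or 2, Akita replicate 4, Akita + NACET replicate 5 or WT + NACET replicate 3, and WT replicate 1 respectively, and the 2 between the treated groups without replicate 1 of either. Of all genes tested, 0 were called in Akita against WT without WT replicate 1 or 2. Without Akita replicate 4, 1 was called in Akita + NACET against Akita. DESeq2 with all groups called 5, 5 and 10 neighbouring genes in the first 3 comparisons, against 2, 4 and 6 in edgeR. Of all genes it called 2080, 2387 and 2751 of 27360 there, and edgeR 1237, 1562 and 2148 of 16183. Where a cause is not named it was not tested. Genes with few reads (Mpst, Cbs) and changes under 2-fold are the ones that depth and replicate number limit most.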
